A study of Mus musculus with 12 samples.

Results

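A set of 10 genes of basophils and mast cells was described in RNA from megakaryocytes (MKs), the platelet-forming cells. The genes were Mcpt8, Prss34, Cpa3, Fcer1a, Ms4a2, Fcer1g, Cd200r3, Hdc, Il4 and Cyp11a1. They had been chosen by their counts in the splenic libraries, for a fall after sepsis, and each matched 1 gene of the 55536 in the count table. All 10 passed the filter on low counts, as did 20263 genes in all. Since the splenic libraries chose them, their splenic values are given below as a description, without a test. The 6 BM libraries took no part in that choice.

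MKs were sorted from bone marrow (BM) and from the spleen. The mice were Pf4-TdTomato animals, where a Cre recombinase under the Pf4 promoter switches on the red protein tdTomato, on a C57BL/6 background. All groups were of this line. The mice had received saline or an injection of cecal slurry, a suspension of gut content used to model sepsis, 5 days earlier. There were 4 groups of 3 independent libraries, BM saline, BM sepsis, splenic saline and splenic sepsis, each library from 300 cells. The gate took cells positive for CD45, Pf4-tomato, CD41 and CD42b and negative for lineage antigens. The lineage antibodies that the methods list for this sort were against NK1.1, CD3, CD11b, F4/80 and B220. CD11b is carried by basophils, and none of these antibodies was against an IgE receptor chain.

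Basophils are rare granulocytes that mature in the marrow and circulate in blood, while mast cells mature in tissues. Both carry FcεRI, the high-affinity receptor for IgE, built of the α chain that binds IgE (Fcer1a), the amplifying β chain (Ms4a2) and the signaling γ chain (Fcer1g). Cross-linking of that receptor releases histamine and proteases from granules and leads to IL-4 secretion. In mice, Mcpt8 and Prss34 encode serine proteases that mark basophils, whereas connective tissue and mucosal mast cells hold other chymases and tryptases.

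Total counts ran from 7756762 to 27386184 per library, so that a count of 0 allowed at most 0.105 to 0.405 scaled CPM (3 counts; counting error only). Levels are given as CPM, the count relative to the library total, scaled with TMM factors. The defining MK genes were high in BM: Pf4 per kilobase of exon ranked between 1 and 3 of 55450 genes in all 6 BM libraries, and between 34 and 129 in the 6 splenic ones. The summed CPM of 5 MK and platelet genes was 11219 to 46053 in BM and 1089 to 3332 in spleen. In spleen, 4 plasma cell genes summed to 7292 to 80450 CPM and 5 B cell genes to 15838 to 50236 CPM, so the splenic libraries held abundant RNA of B lineage genes beside that of the labelled cell type.

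The genes are protein-coding and lie on 9 chromosomes in GRCm38, where Fcer1a and Fcer1g share chromosome 1. Mcpt8 spans chr14:56082166-56085273, Prss34 chr17:25298394-25300165, Cpa3 chr3:20215620-20242181, Fcer1a chr1:173221284-173227214 and Ms4a2 chr19:11615523-11623719. Fcer1g spans chr1:171229572-171234365, Cd200r3 chr16:44943678-44981380, Hdc chr2:126593667-126619299, Il4 chr11:53602982-53618669 and Cyp11a1 chr9:58006411-58027023. Their exons were free of other annotated genes, except that 3.02% of the exon length of Cyp11a1 also belongs to Gm17322. Promoter windows from RefSeq (GRCm38.p6, the 250 bases before a transcript's start) were found for all 10 genes, with 12 windows in total because Il4 and Cyp11a1 have 2 starts. The windows were searched on both strands for letters that GATA factors bind (AGATAA in its usual form, the variant AGATAG, then also TGATAA, with its own variant TGATAG), since GATA factors govern basophil, mast cell and MK genes alike. These letters stood in 8 of the 12 windows, against 26.5% of 32851 mouse promoter windows of the same length. The windows of the proteases, the IgE-binding and amplifying chains and Cd200r3 are shown as examples of the granule and surface genes of the set, each with a single start and, in all but Mcpt8, these letters. They are printed 5′ to 3′ along the gene's own strand, with the GATA letters (or their reverse complement) in capitals.
Mcpt8, chr14:56085198-56085447, minus strand: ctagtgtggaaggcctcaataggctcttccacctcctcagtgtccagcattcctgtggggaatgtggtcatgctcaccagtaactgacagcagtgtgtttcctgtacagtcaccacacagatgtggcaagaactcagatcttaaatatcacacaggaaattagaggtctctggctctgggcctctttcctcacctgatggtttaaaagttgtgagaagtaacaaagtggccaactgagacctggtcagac
Prss34, chr17:25298144-25298393, plus strand: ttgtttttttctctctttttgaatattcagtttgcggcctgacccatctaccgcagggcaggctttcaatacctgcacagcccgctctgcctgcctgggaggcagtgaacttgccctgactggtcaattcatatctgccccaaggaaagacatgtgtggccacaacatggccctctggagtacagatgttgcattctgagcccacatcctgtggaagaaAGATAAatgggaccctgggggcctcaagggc
Cpa3, chr3:20242182-20242431, minus strand: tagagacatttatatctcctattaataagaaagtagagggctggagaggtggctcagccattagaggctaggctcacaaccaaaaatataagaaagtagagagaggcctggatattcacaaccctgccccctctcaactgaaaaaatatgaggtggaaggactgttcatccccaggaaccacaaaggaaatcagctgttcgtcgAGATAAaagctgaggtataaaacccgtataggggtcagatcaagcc
Fcer1a, chr1:173227230-173227479, minus strand: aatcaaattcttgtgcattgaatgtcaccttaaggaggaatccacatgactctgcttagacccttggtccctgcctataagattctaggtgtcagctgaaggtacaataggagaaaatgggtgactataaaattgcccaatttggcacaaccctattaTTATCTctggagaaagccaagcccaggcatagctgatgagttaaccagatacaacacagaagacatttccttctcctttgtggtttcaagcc
Ms4a2, chr19:11623720-11623969, minus strand: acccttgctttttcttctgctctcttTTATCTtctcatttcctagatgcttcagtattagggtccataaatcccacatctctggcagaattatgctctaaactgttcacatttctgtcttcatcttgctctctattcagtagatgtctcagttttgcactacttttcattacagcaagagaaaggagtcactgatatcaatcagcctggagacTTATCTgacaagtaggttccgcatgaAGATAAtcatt
Cd200r3, chr16:44943428-44943677, plus strand: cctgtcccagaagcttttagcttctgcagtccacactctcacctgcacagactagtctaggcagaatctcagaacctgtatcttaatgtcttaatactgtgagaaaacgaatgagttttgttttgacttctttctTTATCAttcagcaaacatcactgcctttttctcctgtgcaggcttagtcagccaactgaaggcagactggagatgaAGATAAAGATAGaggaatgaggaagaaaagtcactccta
In these windows the capitals begin 31 bases before the start of Prss34, 46 before that of Cpa3 and 92 before that of Fcer1a. Ms4a2 holds them at 224, 37 and 11 bases, and Cd200r3 at 115, 39 and 33 bases. Among the windows not printed, Hdc has them 221 bases before its start, and 1 of the 2 starts of Il4 and of Cyp11a1 has them at 80 and 231 bases. The windows of Mcpt8 and Fcer1g hold none of these letters. A C/EBP motif (TTGCNNAA) was in 4 of the 12 windows against 9.56% of all, and RUNX letters (TGTGGT and the variant TGCGGT) in 4 against 18.6%. Neither motif contains the GATA letters. These are matches of letters, not measured binding.

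Mcpt8 and Prss34 were the most abundant of the 10 genes in every BM library. In spleen, Fcer1g was the highest of the 10 in saline replicate 2 and in sepsis replicates 1 and 2. Mcpt8, the basophil serine protease, measured 4985, 13208 and 2155 CPM in the 3 BM saline libraries and 2430, 1080 and 2622 CPM after sepsis. In splenic MKs it measured 1457, 858 and 1527 CPM after saline and 38.0, 12.7 and 262 CPM after sepsis. BM saline replicate 2 was the highest library by far, the BM groups overlapped, and each splenic sepsis library lay below each splenic saline library. Per kilobase of exon, Mcpt8 ranked between 4 and 17 of all genes in BM saline MKs, between 14 and 38 in BM after sepsis, between 58 and 68 in spleen after saline and between 157 and 2958 in spleen after sepsis. In splenic saline MKs its mean of 1283 CPM per kilobase stood beside 1630 for Pf4 itself. In the single libraries Mcpt8 stood at 1459, 860 and 1530 and Pf4 at 672, 835 and 3383, so Pf4 was the higher only in replicate 3.

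Prss34, another basophil serine protease, followed the same order. It measured 3955, 11188 and 1549 CPM in BM saline, 2178, 1115 and 2876 CPM in BM sepsis, 907, 207 and 764 CPM in splenic saline and 30.3, 8.63 and 245 CPM in splenic sepsis. Splenic sepsis replicate 3 lay above splenic saline replicate 2, so these groups overlapped. Cpa3, the carboxypeptidase A that both cell types store in their granules, measured 716, 2188 and 479 CPM in BM saline and 518, 138 and 625 CPM in BM sepsis. In spleen it measured 742, 408 and 268 CPM after saline and 6.58, 3.81 and 32.6 CPM after sepsis, without overlap.

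**Figure D1:**
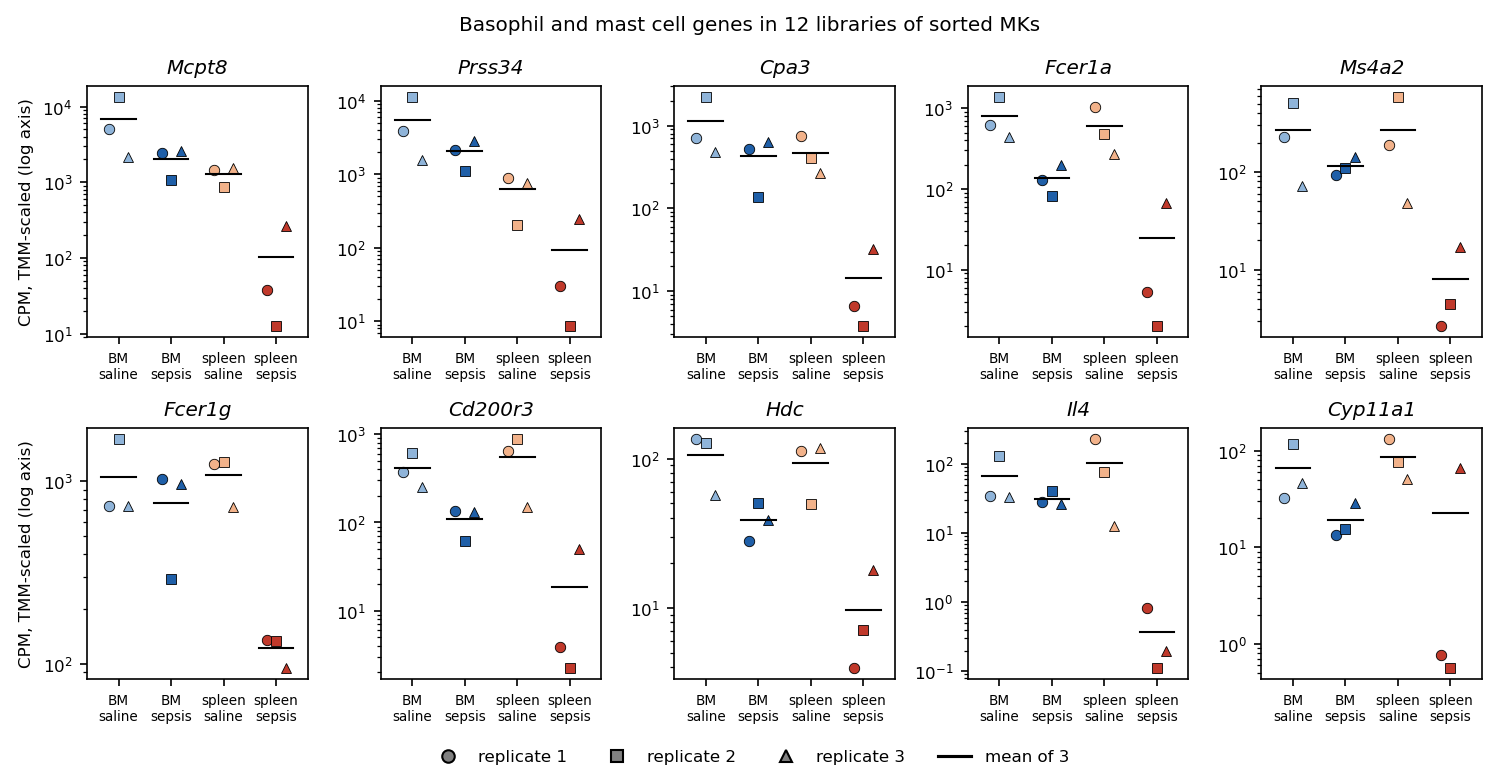
Levels of the 10 genes in each of the 12 libraries, in TMM-scaled CPM on a log axis, with the 4 groups on the horizontal axis; each symbol is a library and each bar the mean of 3. Splenic sepsis replicates 1 and 2 are the lowest 2 libraries for every gene except Fcer1g and Il4, and BM saline replicate 2 is the highest for Mcpt8, Prss34, Cpa3, Fcer1a and Fcer1g.

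The chains of the IgE receptor were all lower in spleen after sepsis, and differences between the chains were not tested. Fcer1a, the α chain, measured 619, 1363 and 440 CPM in BM saline and 129, 82.6 and 201 CPM in BM sepsis, without overlap between the groups. It measured 1037, 487 and 269 CPM in splenic saline and 5.35, 2.02 and 67.2 CPM in splenic sepsis, again without overlap. Ms4a2, the β chain, measured 225, 506 and 72.3 CPM in BM saline and 93.8, 109 and 141 CPM in BM sepsis, where the groups overlapped. In spleen Ms4a2 went from 187, 578 and 47.6 CPM to 2.67, 4.48 and 16.98 CPM, with every sepsis library below every saline library.

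Fcer1g, the γ chain, also serves Fc receptors of other myeloid cells and the collagen receptor GPVI of MKs and platelets. It measured 732, 1697 and 732 CPM in BM saline and 1027, 291 and 960 CPM in BM sepsis, with overlap. In spleen it measured 1242, 1279 and 726 CPM after saline and 135, 133 and 94.6 CPM after sepsis. The 3 splenic sepsis libraries were close to each other, whereas the other 9 genes spread further among them. Replicate 3, the highest of the 3 for every other gene except Il4, was the lowest for Fcer1g.

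Cd200r3, an activating receptor of basophils and mast cells, measured 376, 620 and 252 CPM in BM saline and 134, 61.0 and 131 CPM in BM sepsis, without overlap. In spleen it measured 641, 875 and 149 CPM after saline and 3.91, 2.24 and 50.1 CPM after sepsis, also without overlap. Hdc, the enzyme that makes histamine, measured 134, 127 and 57.0 CPM in BM saline and 27.9, 50.3 and 38.5 CPM in BM sepsis. The BM groups of Hdc did not overlap either. In spleen Hdc measured 113, 49.7 and 118 CPM after saline and 3.96, 7.06 and 17.9 CPM after sepsis.

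Il4, the cytokine of type 2 immunity, measured 35.0, 131 and 33.6 CPM in BM saline and 28.2, 40.4 and 26.2 CPM in BM sepsis. In splenic saline MKs it measured 227, 75.6 and 12.6 CPM, and in splenic sepsis 0.822, 0.112 and 0.194 CPM, which were 16, 1 and 2 counts. Il4 was thus close to the limit of detection in all 3 splenic sepsis libraries, replicate 3 included. Cyp11a1, the enzyme that starts steroid synthesis from cholesterol, measured 32.5, 118 and 46.7 CPM in BM saline and 13.4, 15.6 and 29.1 CPM in BM sepsis. In spleen it measured 131, 75.9 and 50.9 CPM after saline, and 0.771, 0.560 and 67.1 CPM after sepsis. Replicate 3 was within the saline range for Cyp11a1 while it was at 2 counts for Il4.

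Together the 10 genes took 0.696% to 3.41% of all counts in BM saline, 0.425% to 0.887% in BM sepsis and 0.317% to 0.491% in splenic saline MKs. They took 0.0162%, 0.0133% and 0.0879% in the 3 splenic sepsis libraries, so replicate 3 held 6.60 times the share of replicate 2. In a bulk library, fewer cells of a type and less RNA per cell cannot be told apart. Mcpt8, Prss34 and Cpa3 made up 71.9% to 85.4% of the 10 genes' counts in BM saline and 77.9% to 80.0% in BM sepsis, against 30.1% to 65.1% in splenic saline. Fcer1g alone made up 59.5% and 76.2% of them in splenic sepsis replicates 1 and 2 and 11.1% in replicate 3.

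Ratios to Mcpt8 within a library do not depend on scaling. Fcer1a counts were 10.3% to 20.4% of Mcpt8 counts in BM saline and 5.32% to 7.66% in BM sepsis. Prss34 counts were 71.9% to 84.7% of Mcpt8 counts in BM saline and 89.6% to 109.7% in BM sepsis. These were the only 2 of 9 ratios whose BM groups did not overlap, and each had a two-sided exact permutation p of 0.1, the smallest that 3 against 3 allows (Benjamini-Hochberg adjusted p = 0.45 over 9 ratios). In splenic saline MKs, Fcer1a stood at 71.2%, 56.7% and 17.6% of Mcpt8 and Cd200r3 at 44.0%, 102.0% and 9.77%, with replicate 3 inside the BM saline range for both.

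**Figure D2:**
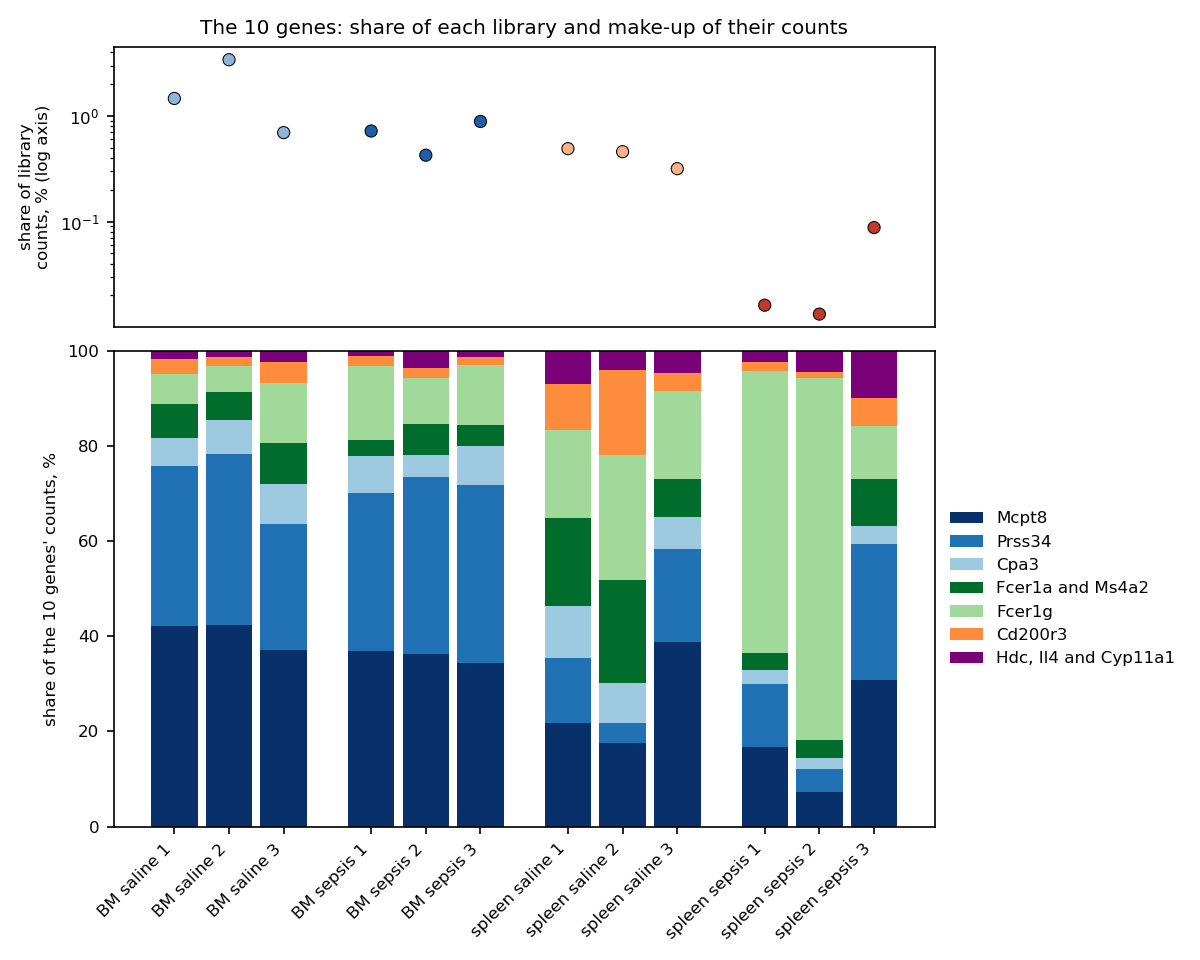
Upper panel, share of each library's counts taken by the 10 genes, in percent on a log axis; lower panel, make-up of those counts by gene, in percent, for the 12 libraries in their 4 groups. The proteases (blue) fill 71.9% or more of every BM bar, and Fcer1g (light green) fills 59.5% and 76.2% of splenic sepsis replicates 1 and 2.

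The BM libraries answer whether the genes also differed after sepsis where they had not been chosen. Fitted log2 fold changes of sepsis over saline were below 0 for 10 of 10 genes in BM, with a median of -1.44, while 53.5% of all genes tested were below 0 with a median of -0.08. The largest differences were those of Fcer1a (-2.55 ± 0.92, SE, n = 3 per group, edgeR adjusted p = 1), Cd200r3 (-1.93 ± 0.89) and Cyp11a1 (-1.76 ± 1.18). Mcpt8 followed at -1.73 ± 0.80, Hdc at -1.45 ± 0.69, Prss34 at -1.44 ± 0.89 and Cpa3 at -1.40 ± 0.77. Ms4a2 stood at -1.22 ± 0.83, Il4 at -1.08 ± 0.90 and Fcer1g at -0.47 ± 0.53. None of the 10 passed edgeR's quasi-likelihood test at an adjusted p under 0.05, as was the case for all genes (0%), and none passed in DESeq2 or limma-voom. With no expression filter, edgeR called Mcpt8 and Fcer1a (adjusted p = 0.00255 and 0.00869), among 81 calls or 0.177% of the genes then tested. At an unadjusted p under 0.05, 3 of the 10 passed in edgeR, namely Mcpt8, Fcer1a and Cd200r3, as did 3.54% of all genes.

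For 4 of the 10 genes, Fcer1a, Cd200r3, Hdc and Cyp11a1, all 3 BM sepsis libraries lay below all 3 BM saline libraries, as did 4.16% of all genes tested. The 10 genes move together across libraries, so they do not count as 10 separate observations. Without BM saline replicate 2, 9 of 10 remained below 0, the median was -0.61 and Fcer1g stood at 0.09. Neutrophil marker genes differed between the same groups: 7 of 7 had a fitted fold change above 0 in BM, and their summed CPM was 60.6 to 265 after saline and 2239 to 16029 after sepsis. The summed CPM of 6 monocyte and macrophage genes was 107 to 263 after saline and 315 to 1010 after sepsis, and that of 4 erythroid genes 108 to 335 and 21.8 to 63.8, also without overlap. These sums rested on few genes. Ly6c2 had means of 105 and 459 CPM, whereas Ccr2 had 65.3 and 72.2 CPM and Adgre1 6.30 and 2.64 CPM. Among the erythroid genes, Hbb-bs had means of 138 and 16.1 CPM and Hba-a1 46.7 and 15.8 CPM. Klf1, the only 1 of the 4 with a fitted fold change above 0, had 0 and 3.65 CPM. None of these genes passed, and their part in the result was not tested.

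In splenic MKs, the contrast that chose the genes, 10 of 10 were below 0 with a median log2 fold change of -4.10, where 51.9% of all genes were below 0 with a median of -0.08. The differences ran from -7.99 ± 1.22 for Il4 to -1.92 ± 1.19 for Cyp11a1 (SE, n = 3 per group). Ms4a2 at -5.07 ± 0.97, Cpa3 at -5.04 ± 0.89, Cd200r3 at -4.89 ± 1.01 and Fcer1a at -4.59 ± 1.01 came next to Il4. The groups did not overlap for 8 of 10 genes, beside 4.51% of all genes below in that way. Prss34 and Cyp11a1 were the exceptions, both because of splenic sepsis replicate 3. Without that library the median was -6.32, and Cyp11a1 stood at -6.94, Cd200r3 at -7.43, Fcer1a at -7.28, Cpa3 at -6.46, Mcpt8 at -5.62 and Prss34 at -4.97.

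**Figure D3:**
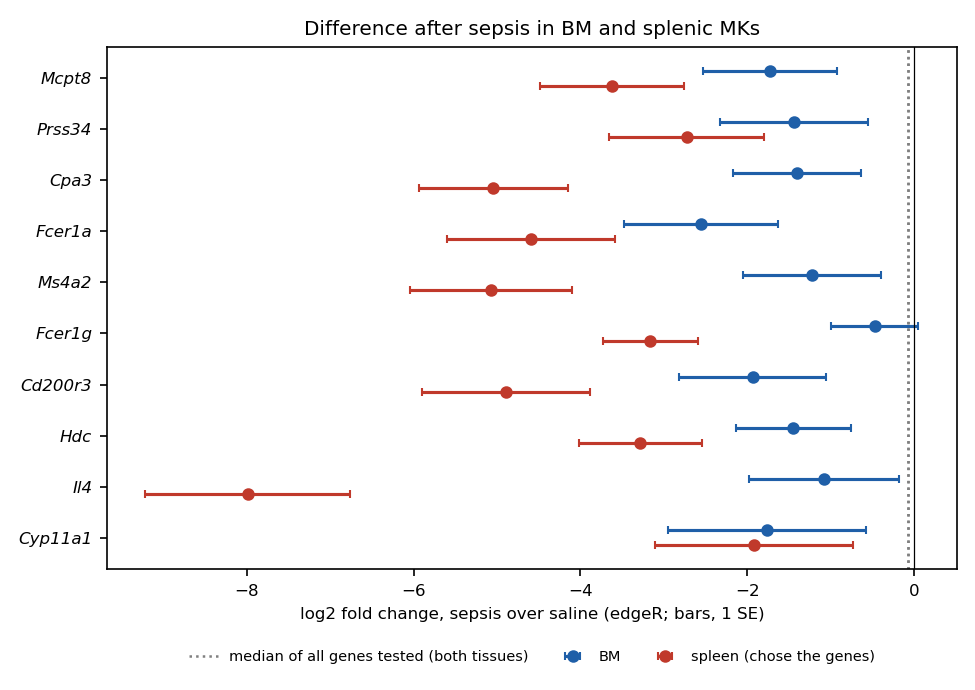
Log2 fold changes of sepsis over saline for each gene in BM (blue) and spleen (red), from edgeR, with bars of 1 SE from 3 libraries per group; the dotted line is the median of all genes tested. All 10 points lie left of 0 in both tissues, from -2.55 to -0.47 in BM and from -7.99 to -1.92 in spleen, where the genes were chosen.

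The difference between tissues varied by gene, and the median of all genes tested was 0.28 (log2, spleen over BM) after saline and 0.18 after sepsis. After saline, spleen stood below BM without overlap for Mcpt8 (log2 fold change of -2.41 ± 0.82) and Prss34 (-3.15 ± 0.94), as for 11.3% of all genes, and the other 8 genes overlapped. Their differences ran from -1.25 ± 0.76 for Cpa3 to 0.66 ± 0.89 for Il4, with Fcer1g at 0.04 ± 0.52 and Ms4a2 at 0.02 ± 0.81. After sepsis, spleen stood below BM without overlap for 9 of 10 genes, as for 11% of all genes, from -6.26 ± 1.14 for Il4 to -2.02 ± 0.71 for Hdc. The exception was Cyp11a1, at 0.24 ± 1.15. These 2 contrasts share splenic libraries with the choice of the genes and were not tested for them.

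Genes of the same pathways outside the 10 were read from 11 lists with 89 genes, 79 of which passed the filter on low counts. In BM, 0 of 79 passed edgeR's test after sepsis, 0 in DESeq2 and in limma-voom, and 4 had an unadjusted p under 0.05 (3.54% of all genes), with 50 of 79 below 0. Ccl3 and Ccl4 were each called lower in BM in 1 of 19 alternatives (edgeR adjusted p = 0.00111 and 1.02e-05). In spleen, 2 of 79 passed after sepsis (0.158% of all genes), both lower, namely the chemokine genes Ccl3 and Ccl4, while 28 had an unadjusted p under 0.05, as had 13.1% of all genes. Ccl3 measured 3838, 2891 and 467 CPM in splenic saline and 6.48, 4.59 and 66.2 CPM in splenic sepsis, and fell by 6.54 ± 1.04 on the log2 scale (SE, edgeR adjusted p = 0.0133). Ccl4 measured 2881, 1699 and 405 CPM and then 3.80, 2.91 and 19.1 CPM, and fell by 7.59 ± 1.01 on the log2 scale (SE, edgeR adjusted p = 0.00667). DESeq2 called 15 of the 70 that it gave an adjusted p, 14 of them lower and Ccl3, Ccl4, Fcgr3, Csf2rb2, Il6 and Alox5ap among them, and limma-voom called 0. Over all genes DESeq2 called 5.25% in that contrast. After sepsis in spleen, Ccl3 and Ccl4 were called in 17 of 19 alternatives. They were lost in limma-voom (adjusted p = 0.470 and 0.421) and in a fit of the 2 splenic groups alone (0.356 and 0.307). Ccl4 was also lower in spleen than in BM after sepsis (log2 fold change of -3.44 ± 0.84, SE, edgeR adjusted p = 0.0366), a call lost in 5 of 19 alternatives, among them the one without splenic sepsis replicate 2 (adjusted p = 0.0556). A gene said below to have passed did so in edgeR's test with all 12 libraries. Genes that did not pass could still be called in some alternatives.

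Downstream of FcεRI, none of 13 signaling genes passed in any contrast. The receptor-proximal kinase genes Lyn and Syk measured 60.6 to 226 CPM and 70.0 to 116 CPM in splenic saline MKs, and 180 to 266 CPM and 109 to 588 CPM in splenic sepsis. Lyn and Syk also act in MKs and B cells, and these kinase genes were not low where the receptor's own α and β chains were. The list was mixed. In spleen after sepsis, 8 of the 13 signaling genes had a fitted log2 fold change above 0 and 5 below, down to -5.33. Among 6 partner receptors of the γ chain, Gp6, which encodes GPVI, measured 30.9 to 74.5 CPM in BM saline, 14.3 to 95.5 CPM in BM sepsis, 6.97 to 33.7 CPM in splenic saline and 3.30 to 24.2 CPM in splenic sepsis. Fcgr3, a low-affinity IgG receptor, measured 272, 320 and 94.6 CPM in splenic saline and 0.720, 29.0 and 2.04 CPM in splenic sepsis. None of the 6 passed, although Fcgr3 was called lower in spleen after sepsis in 11 of 19 alternatives.

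Of 9 transcription factors, 8 were below 0 in spleen after sepsis and none passed. Gata2, needed for basophils and mast cells, measured 79.7, 120.1 and 88.6 CPM in splenic saline and 4.58, 8.96 and 53.7 CPM in splenic sepsis, without overlap. In BM it measured 150 to 214 CPM after saline and 106 to 163 CPM after sepsis. Gata1, shared by MKs, erythroid cells, mast cells and basophils, was lower in spleen than in BM after sepsis (log2 fold change of -4.05 ± 0.84, SE, edgeR adjusted p = 0.0141). That call was lost in limma-voom and without BM sepsis replicate 1 or 2 (adjusted p = 0.0531 to 0.0935). In BM after sepsis, 5 of the 9 were below 0 and none passed.

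Of 11 receptors for cytokines and alarmins, none passed. Csf2rb, the shared β chain of the IL-3, IL-5 and GM-CSF receptors, measured 108 to 326 CPM in splenic saline and 102 to 417 CPM in splenic sepsis. Csf2rb2, the β chain private to IL-3, measured 65.1, 46.6 and 123.6 CPM and then 0.360, 0.224 and 11.2 CPM in the same groups, without overlap, whereas the groups of Csf2rb overlapped. All 8 surface antigens of basophils were below 0 in both tissues, with medians of -1.34 in BM and -2.64 in spleen, and none passed. Cd63, the tetraspanin that reaches the surface on degranulation, measured 890.4, 391.6 and 190.7 CPM in splenic saline and 4.52, 2.80 and 116 CPM in splenic sepsis. Cd63 was called lower after sepsis in spleen in 3 of 19 alternatives. It was called lower in spleen than in BM after sepsis in 12 of 19.

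Genes that mark mast cells rather than basophils were at or near 0. The 9 chymase, tryptase and receptor genes other than Kit reached at most 6.76 CPM in any library, 77 of their 108 values were 0, and Cma1 and Mrgprb2 were at 0 in all 12 libraries. Kit, the stem cell factor receptor of mast cells and of early MKs, measured 11.3 to 65.6 CPM in BM saline, 20.9 to 59.8 CPM in BM sepsis, 3.24 to 42.1 CPM in splenic saline and 0.194 to 2.31 CPM in splenic sepsis. Kit was lower in spleen than in BM after sepsis (log2 fold change of -4.93 ± 1.23, SE, edgeR adjusted p = 0.0436), a call lost in 7 of 19 alternatives, among them those without BM sepsis replicate 1 or 2 and without splenic sepsis replicate 2 or 3 (adjusted p = 0.0659 to 0.0849).

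Of the other effectors, Il6 measured 335, 266 and 20.3 CPM in splenic saline and 0.565, 12.7 and 0.097 CPM in splenic sepsis, which did not pass (edgeR adjusted p = 0.164). Il6 was called lower in that contrast in 11 of 19 alternatives. Il13 and Il5 stayed under 10 CPM in every library and Csf2 was at 0 in all 12. Of 6 enzymes of lipid mediators, Alox5ap, the helper of 5-lipoxygenase, measured 363, 161 and 121 CPM in splenic saline and 60.1, 32.2 and 46.3 CPM in splenic sepsis, without overlap, and none of the 6 passed. Of 6 genes that handle histamine, Slc18a2, which loads amines into granules, measured 73.9, 93.1 and 46.5 CPM and then 9.51, 14.7 and 38.8 CPM, also without overlap. Srgn, the granule proteoglycan shared with platelets, measured 563 to 2040 CPM in splenic sepsis against 1354 to 2150 CPM in splenic saline, and none of the 6 passed.

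Of 4 genes through which cells answer IL-4, 3 were above 0 and 1 below in spleen after sepsis. Their fitted log2 fold changes ran from -1.52 to 0.25 there. The receptor gene Il13ra1 had means of 44.7 CPM in splenic saline and 15.5 CPM in splenic sepsis. In BM, 3 of the 4 were below 0 after sepsis. None passed after sepsis in either tissue. Il2rg, the γ chain of the IL-4 receptor and of several other cytokine receptors, was higher in spleen than in BM after saline (log2 fold change of 3.20 ± 0.76, SE, edgeR adjusted p = 0.0406), where 1.25% of all genes were called. It was also higher after sepsis (3.50 ± 0.77, edgeR adjusted p = 0.0205), where 1.78% were called. The former call was lost without any 1 BM saline library and without splenic saline replicate 1 or 3 (adjusted p = 0.0575 to 0.188), the latter without BM sepsis replicate 1 or 2 or splenic sepsis replicate 2 (0.0688 to 0.0989). Stat6, the transcription factor of the pathway, measured 12.03 to 61.8 CPM in splenic saline and 22.3 to 60.2 CPM in splenic sepsis. Il2rg measured 101 to 205 CPM and 64.2 to 287 CPM in the same groups, with overlap. Beside Cyp11a1, the steroid synthesis genes Star and Fdx1, which bring cholesterol and electrons to the enzyme, measured 19.6 and 63.2 CPM in splenic sepsis replicate 3. In replicates 1 and 2 Star was at 0 while Fdx1 measured 46.7 and 49.6 CPM. None of the 5 steroid synthesis genes that passed the filter was called.

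Outside the set, the 10 genes whose log2 CPM was closest to the mean standardised level of the set over the 12 libraries were Csrp3, Ifitm1, Ccl3, Cd63, Cenpo, Ier3, 1110028F11Rik, Csf2rb2, Id1 and Vopp1. Pearson's r ran from 0.991 for Csrp3 to 0.945 for Vopp1, a description over libraries that share groups and depth. Within the set, r of a gene with the mean of the other 9 ran from 0.848 for Cyp11a1 to 0.987 for Cpa3. The set was chosen for its fall in splenic libraries that enter r, so a high r was partly built in by that choice. Csrp3 measured 144, 376 and 84.2 CPM in BM saline and 51.2, 58.0 and 78.0 CPM in BM sepsis. In spleen it measured 298, 151 and 72.7 CPM after saline and 1.29, 0.336 and 5.14 CPM after sepsis. In BM Csrp3 stood at -1.69 ± 0.79 after sepsis (log2 fold change, SE), and BM saline replicate 2 was its highest BM library. Csrp3 was picked for its likeness to the set in libraries that include those of BM. Its BM values are therefore a description without a test.

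**Figure D4:**
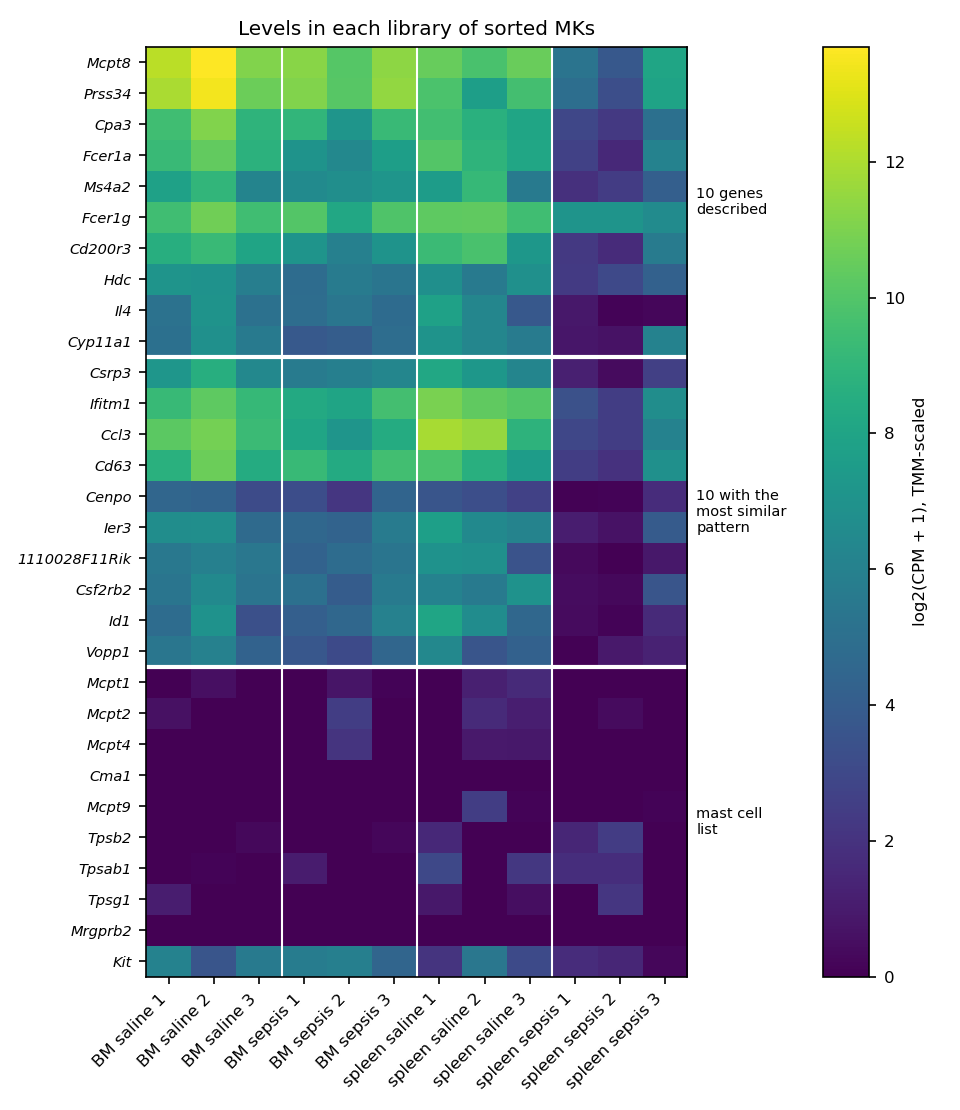
Levels as log2(CPM + 1) in the 12 libraries (columns) for the 10 genes, the 10 genes with the most similar pattern and the mast cell list (rows), from dark (0) to yellow (high). Mast cell genes other than Kit stay at or under 6.76 CPM in every library, and the upper 2 blocks are darkest in splenic sepsis replicates 1 and 2.

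Markers of other cells moved with the splenic groups to different extents. The summed CPM of 5 eosinophil genes was 123 to 280 after saline and 29.8 to 85.5 after sepsis, and that of 4 plasma cell genes 46115 to 80450 and 7292 to 34579. Jchain gave most of the plasma cell sum, with means of 58837.5 CPM after saline and 23384.9 CPM after sepsis. The means of Sdc1 (6.72 and 45.5 CPM), Xbp1 (348 and 486 CPM) and Prdm1 (36.5 and 52.3 CPM) were higher after sepsis. The 5 B cell genes summed to 15838 to 50236 CPM and 29838 to 45876 CPM, and the 5 MK and platelet genes to 1244 to 3332 CPM and 1089 to 1778 CPM. The 6 monocyte and macrophage genes summed to 552 to 1168 CPM after saline and 234 to 427 CPM after sepsis, without overlap. Neutrophil genes summed to 18229 CPM in saline replicate 1 and 9236 CPM in sepsis replicate 1, and to 65.2 to 363 CPM in the other 4 splenic libraries. None of these marker genes passed edgeR's test after sepsis in spleen, and their part in the result was not tested. The 6 BM libraries held at most 60.4 CPM of the eosinophil genes.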

How the data were processed

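RNA from 12 libraries of 300 sorted MKs each was amplified with SMART-Seq HT and prepared with Nextera XT by the authors. The table holds raw gene counts per library, which were deposited by the authors without normalization. The submitters' processing notes name GRCm38, STAR 2.7.2b, R 3.6.1 and DESeq2 1.26. Annotation, counting options and strand are not given in the sources used. Groups were taken from the titles and treatment labels.

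Counts were analysed in R 4.3.3 with edgeR 4.0.16 (filterByExpr with a minimum count of 10, TMM factors, 1 mean per group, quasi-likelihood test, 8 residual degrees of freedom), and p values were adjusted by Benjamini-Hochberg over 20263 genes, with calls at 0.05. SE is the log2 fold change over the square root of F. The common dispersion was 2.05. All 12 libraries entered 1 fit. Alternatives were RLE factors, library size alone, no expression filter, DESeq2 1.42.0, limma 3.58.1 (voom with quality weights), a fit of 2 groups alone, the replicate number as a block, and each library left out in turn. The scripts were tested on simulated counts. Exon lengths and positions came from GENCODE M21 (GRCm38), and promoters from RefSeq (GRCm38.p6).

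The 10 genes and the other lists were chosen with earlier results of these data known. Named genes were the 10, each list gene called in a contrast and otherwise at most 4 per list in the order written, and the 10 genes of most similar pattern (log2 CPM, prior count 2). Intervals of a count of 0 (3 counts) cover counting error only.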

Additional observations from a re-analysis of the deposited data

How the results depend on the processing

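Of 190 alternative values of the 10 genes' log2 fold changes in BM, 187 kept their direction and stayed without a call. With 1 library left out Fcer1g ranged from -0.73 to 0.0897, the latter without BM saline replicate 2, and with no expression filter Mcpt8 (-1.69, adjusted p = 0.00255) and Fcer1a (-2.51, adjusted p = 0.00869) were called. In spleen, where the genes were chosen, none of 190 values changed direction, and 9 moved by more than the spread between libraries, 6 of them without splenic sepsis replicate 3. Counts of genes called depended strongly on the method. After sepsis in BM, where edgeR called 0 (717 at an unadjusted p under 0.05), no filter gave 81, DESeq2 220 and leaving out 1 library 0 to 12. In spleen, where it called 32, these gave 187, 931 and 48 to 138, and limma-voom and the fit of 2 groups alone gave 0. For spleen over BM after saline (253 called) they gave 529, 1053 and 197 to 467, and after sepsis (361 called) 595, 1248 and 307 to 512, with 724 in limma-voom. For the interaction of tissue and sepsis (0 called, 1556 at an unadjusted p under 0.05) they gave 130, 470 and 3 to 48. The cause of these differences between methods was not tested. Pairing of libraries by replicate number was not detected (correlation of deviations between -0.0566 and 0.0447 over 18 pairs). With libraries that vary this much, that check cannot show that they were unpaired. The replicate block gave 0, 33, 288, 401 and 0 calls in the same order.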
